A study of Mus musculus with 6 samples.

Results

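The genes of the glial cell line-derived neurotrophic factor (GDNF) family were followed in 6 mouse breast tumors, 3 test and 3 control. They are the co-receptors *Gfra1*, *Gfra2*, *Gfra3* and *Gfra4*, the receptor kinase *Ret*, and the ligands *Gdnf*, *Nrtn* and *Artn*, and they make up 8 of the 18460 genes listed in at least 1 tumor. The family was picked because *Gfra1* had the lowest unadjusted p of all 13706 genes compared between the groups, and the members are the family's co-receptors, its kinase and 3 of its ligands. After Benjamini-Hochberg adjustment over all genes (edgeR, quasi-likelihood), the adjusted p = 0.394 of *Gfra1* was shared by *Rbp7*, the gene next in order of unadjusted p. The differences between the groups for the 8 genes are therefore given as a description, with standard errors and without a test.

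All 6 tumors came from Balb/c mice that carried PyMTtg, the polyoma middle T oncogene driven in mammary epithelium by the MMTV promoter, and that were Rag1KO, which leaves them without T and B cells of their own. All received sorted CD4+ T cells from spleens of donor mice at 4 wk of age, and tumors were taken at the endpoint of weeks 18 to 20. The control tumors were PyMTtg, Rag1KO with CD4+ T cells. The test tumors were K14-TSLPtg, PyMTtg, Rag1KO with CD4+ T cells, in which the keratin 14 promoter drives the cytokine TSLP in keratinocytes. Total RNA was taken from whole tumor tissue, and the paper states that its tumors came from separate mice.

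GDNF family ligands are secreted proteins related to TGF-β. Each binds preferentially to 1 of the 4 glycosylphosphatidylinositol-anchored co-receptors, GDNF to GFRA1, neurturin to GFRA2, artemin to GFRA3 and persephin to GFRA4, and the pair then brings together and activates the RET tyrosine kinase. The pathway guides the branching of the ureteric bud and the formation of enteric neurons, and in breast cancer *RET* and *GFRA1* are known as genes of estrogen receptor-positive tumors.

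Totals of expected counts ran from 8373390 to 9449565 per tumor, and 3 counts correspond to 0.318 to 0.366 CPM (the CPM of a gene is its count scaled to a common library total, here with TMM-adjusted library sizes). That limit covers counting error only. Control replicate 2 stood apart from its group. Its correlation with the other control tumors, across genes on the log2 scale, was 0.8737 and 0.9078, below its correlations of 0.9214, 0.9267 and 0.9351 with the 3 test tumors, so values without it are given beside the results that rest on it. The 12 luminal epithelial markers were above 3 counts in every tumor, which fits the label of breast tumor tissue. The 8 T cell markers summed to 5.73 to 7.88 CPM in the control and 5.42 to 9.52 CPM in the test tumors, with *Trac* listed in no tumor. *Tslp*, the transgene's endogenous counterpart, had 2, 2 and 3 expected counts in the control and 12, 7 and 2 in the test tumors. Only test replicates 1 and 2 were above the limit. Test replicate 3 lay within the control range, so these counts do not check the labels. The 7 keratinocyte markers summed to 5.65 to 19.9 CPM in the control and 14.9 to 25.1 CPM in the test tumors, with *Flg* listed in no tumor.

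*Gfra1* (chromosome 19, 58235581 to 58455946 on GRCm38, the mm10 assembly) and *Gfra4* (chromosome 2, 131039632 to 131043088) were, among members with enough reads to be fitted, the 2 with the lowest test to control ratio. Their promoter windows are 300 bases that run from before a transcript start to just after it in RefSeq on GRCm38.p6. They are printed on the minus strand 5′ to 3′ to show the sequence at annotated transcript starts of these 2 genes. Capitals mark the motif matches found on either strand. *Gfra1* has 1 window and *Gfra4* has 2. The *Gfra1* window and the second *Gfra4* window lie wholly inside the gene spans above, so they are not at the outer start of the gene. The first *Gfra4* window runs across the outer start of its span. The motifs searched were GGTCA, the core motif of estrogen receptor sites, AGATAA for GATA factors and CCGGAA for ETS factors, and no 2 matches overlap in these windows.
Gfra1, chr19:58455349-58455648: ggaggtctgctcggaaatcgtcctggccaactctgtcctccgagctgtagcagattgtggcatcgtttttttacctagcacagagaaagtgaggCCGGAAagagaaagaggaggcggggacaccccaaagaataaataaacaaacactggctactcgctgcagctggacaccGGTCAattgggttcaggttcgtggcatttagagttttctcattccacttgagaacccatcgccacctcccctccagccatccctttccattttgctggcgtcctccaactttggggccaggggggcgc
Gfra4, chr2:131043039-131043338: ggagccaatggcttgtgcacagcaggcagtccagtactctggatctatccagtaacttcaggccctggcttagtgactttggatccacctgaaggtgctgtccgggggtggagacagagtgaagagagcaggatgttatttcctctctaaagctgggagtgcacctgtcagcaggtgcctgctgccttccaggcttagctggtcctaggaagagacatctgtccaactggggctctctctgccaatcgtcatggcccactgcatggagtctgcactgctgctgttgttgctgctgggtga
Gfra4, chr2:131042633-131042932: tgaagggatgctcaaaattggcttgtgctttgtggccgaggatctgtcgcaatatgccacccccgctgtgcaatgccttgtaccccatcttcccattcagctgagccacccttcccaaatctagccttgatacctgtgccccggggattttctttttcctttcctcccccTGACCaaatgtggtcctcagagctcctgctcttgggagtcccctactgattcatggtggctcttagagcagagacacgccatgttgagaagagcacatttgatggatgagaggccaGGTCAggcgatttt
The *Gfra1* window holds 1 GGTCA match and 1 ETS match, the first *Gfra4* window holds no match and the second holds 2 GGTCA matches. Among 32851 mouse promoter windows of the same length, 40.5% held GGTCA, 11.2% the GATA motif and 14.9% the ETS motif. These matches describe the letters and are not binding sites.

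*Gfra1*, the co-receptor for GDNF, was low in all 3 test tumors. It had 705, 279 and 551 expected counts in control replicates 1 to 3 and 23, 50 and 21 in test replicates 1 to 3. On the CPM scale this was 81.6, 30.2 and 58.7 in the control (56.8 ± 25.8, SD, n = 3) and 2.65, 6.10 and 2.23 in the test tumors (3.66 ± 2.13, SD, n = 3). The groups did not overlap, and the lowest control value, that of control replicate 2, was above the highest test value. The log2 fold change, test minus control, was -3.96 (SE 0.55), a level 15.5-fold lower in the test tumors. The pooled SD between tumors of a group was 0.70 on the log2 scale, and the log2 fold change was -4.26 without control replicate 2. Groups of 5.86% of all tested genes did not overlap with the test tumors lower, and of 6.12% with the test tumors higher. Because *Gfra1* was chosen on this contrast, nothing is read from its place among them or from the size of the difference against the spread. In whole tumors, fewer cells of a type and less RNA per cell cannot be told apart.

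**Figure D1:**
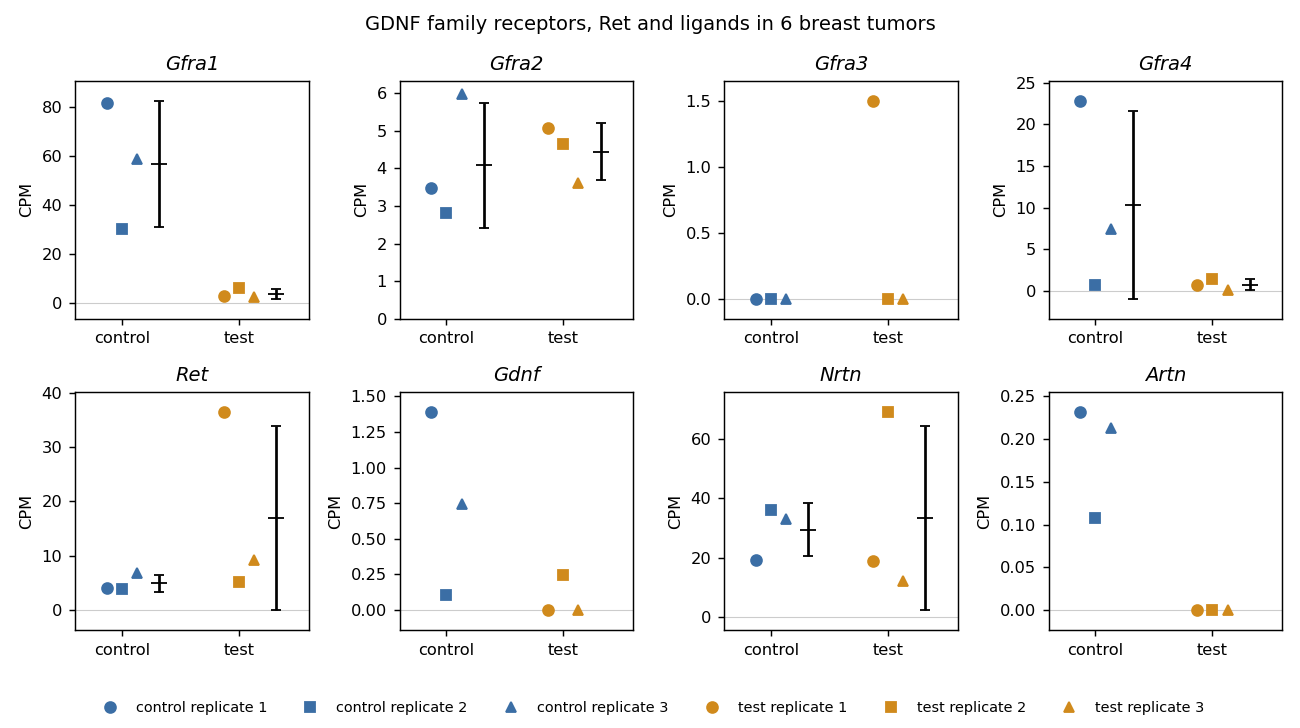
CPM of the 8 genes in each tumor (vertical axes, 1 scale per gene) for the control (blue) and test (orange) tumors, with the replicate number given by the point shape and the mean ± SD (n = 3) drawn for the 5 genes that passed the filter. *Gfra1* lay between 30.2 and 81.6 CPM in the control and between 2.23 and 6.10 CPM in the test tumors, and *Ret* was highest in test replicate 1.

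Marker levels of several cell types in the same tumors stand beside the *Gfra1* values. The 12 luminal markers summed to 2400 to 5013 CPM in the control and 6341 to 6508 CPM in the test tumors, and 10 of 12 were higher in the test tumors, none at a false discovery rate of 0.05 by edgeR and 1, *Krt19*, by DESeq2 (log2 fold change 1.81, DESeq2 adjusted p = 0.00401). The 10 basal and myoepithelial markers were lower in 9 of 10 cases, none at a false discovery rate of 0.05 by edgeR. Their sums were 605.7 to 3982 CPM in the control and 593.6 to 1594 CPM in the test tumors. Their median log2 fold change was -0.78, or -1.21 without control replicate 2. All 10 were above 3 counts in every tumor. The 12 skeletal muscle markers summed to 8.10 to 248.3 CPM in the control and 137.5 to 1452 CPM in the test tumors. The highest control value was in control replicate 2, and none of the 12 was listed at 0 in all tumors. All 12 were higher in the test tumors, with a median log2 fold change of 2.96. Of them, 2 had an unadjusted p under 0.05 and none passed a false discovery rate of 0.05 by edgeR. Of the 8 adipocyte markers the 4 tested were higher, 3 with an unadjusted p under 0.05 and none at a false discovery rate of 0.05 by edgeR. Their sums were 35.8 to 44.8 CPM in the control and 33.9 to 437.1 CPM in the test tumors. For comparison, 51.5% of all tested genes were higher and 48.5% lower in the test tumors. The share higher with an unadjusted p under 0.05 was 3.15%. The 11 fibroblast markers overlapped between the groups, with sums of 1049 to 3067 CPM in the control and 1223 to 5188 CPM in the test tumors. The 11 neuron markers summed to at most 7.17 CPM in any tumor, with *Elavl4* and *Nefm* listed in none. The part of these cells in the *Gfra1* values was not tested. The annotated span of the antisense gene *Gm16277* overlaps that of *Gfra1*. Only spans were compared, not exons, and whether the libraries kept strand is not given in the sources used here. Whether the 2 genes share reads was not tested.

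*Gfra4*, the co-receptor for persephin, was high in 2 of the 3 control tumors. It had 197, 7 and 70 expected counts in the control and 6, 12 and 1 in the test tumors. In CPM these were 22.8, 0.757 and 7.46 in the control (10.3 ± 11.3, SD, n = 3) and 0.692, 1.46 and 0.106 in the test tumors (0.754 ± 0.681, SD, n = 3). Control replicate 2 lay inside the test range, so the groups overlapped. The log2 fold change was -3.77 (SE 1.25), it was -4.32 without control replicate 2 and -2.45 without control replicate 1, which held most of the reads, and the pooled SD within groups was 1.62 on the log2 scale. A microRNA gene, *Mir6973b*, overlaps *Gfra4* in the annotation.

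*Gfra2*, the co-receptor for neurturin (chromosome 14, 70890107 to 70979840), showed neither pattern. It had 3.47, 2.81 and 5.97 CPM in the control and 5.07, 4.64 and 3.61 CPM in the test tumors, with the test values inside the control range. Its log2 fold change was 0.12 (SE 0.46), and its sign turned to -0.09 without control replicate 2. Its expected counts were not whole numbers, 25.5 to 56.1 per tumor, which the estimate gives where reads are shared with other sequences. *Gfra3*, the co-receptor for artemin (chromosome 18, 34689898 to 34720387), had 13 counts in test replicate 1 and was listed in no other tumor.

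*Ret*, the kinase shared by the co-receptors (chromosome 6, 118151748 to 118197744), was highest in test replicate 1. It had 34, 36 and 63 expected counts in the control and 317, 42 and 87 in the test tumors. The CPM values were 3.94, 3.89 and 6.71 in the control (4.85 ± 1.62, SD, n = 3) and 36.6, 5.13 and 9.23 in the test tumors (17.0 ± 17.1, SD, n = 3). Test replicate 2 lay below control replicate 3, so the groups overlapped. The log2 fold change of 1.80 (SE 0.73) rested on 1 tumor, since it was 0.57 without test replicate 1. It was 1.67 without control replicate 2.

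Markers of Schwann cells, the glia of peripheral nerve, were measured beside *Ret*. *Foxd3*, a transcription factor of the neural crest, was listed in test replicate 1 alone, with 4 counts. The 12 Schwann cell markers summed to 552.8 to 699.8 CPM in the control and 391.0 to 656.1 CPM in the test tumors, mostly *Sox10*, which mammary epithelium also expresses. Without *Sox10* they summed to 60.2 to 143.4 CPM in the control and 113.3 to 123.3 CPM in the test tumors. Summed skeletal muscle and adipocyte markers were highest in test replicate 1, at 1452 and 437.1 CPM. Their part in the *Ret* value was not tested.

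Of the 3 ligands, *Nrtn*, which encodes neurturin (chromosome 17, 56751323 to 56757548), was the only one well above the limit. It had 166, 334 and 311 expected counts in the control and 164, 565 and 116 in the test tumors. In CPM these were 19.2, 36.1 and 33.1 in the control (29.5 ± 9.02, SD, n = 3) and 18.9, 69.0 and 12.3 in the test tumors (33.4 ± 31.0, SD, n = 3). The test tumors held both the highest and the lowest value. The log2 fold change was 0.18 (SE 0.63) and turned to -0.92 without test replicate 2. *Gdnf*, the ligand of GFRA1 (chromosome 15, 7810048 to 7837580), had 12, 1 and 7 counts in the control and 0, 2 and 0 in the test tumors, so only control replicates 1 and 3 were above the limit. *Artn*, which encodes artemin (chromosome 4, 117925908 to 117930795), had 2, 1 and 2 counts in the control and none in the test tumors, all under the limit, and no fold is given. *Gfra3*, *Gdnf* and *Artn* did not pass the filter on low counts, which left 5 of the 8 genes in the fit.

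The family's genes outside the 8 were also low. *Pspn*, which encodes the GFRA4 ligand persephin, was listed in 2 tumors with at most 2 counts, and *Gfral*, a related co-receptor, in none. *Gdf15*, which encodes the ligand of GFRAL, passed the filter with a mean of 1.54 FPKM over all tumors. It had a log2 fold change of -0.97 (SE 1.15, adjusted p = 0.836 by edgeR's quasi-likelihood test).

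**Figure D2:**
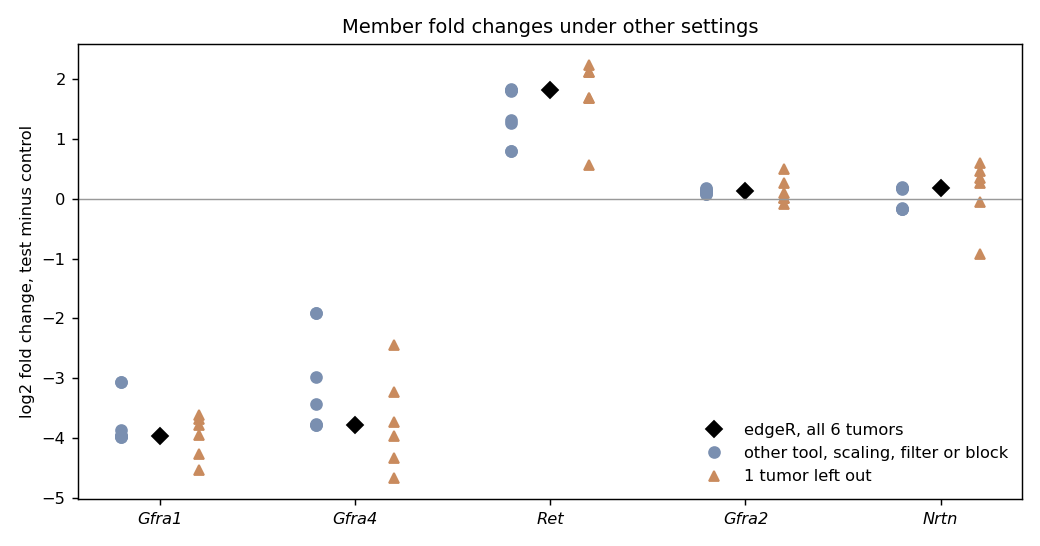
Log2 fold change, test minus control (vertical axis), of the 5 genes that passed the filter, by edgeR with all 6 tumors (diamonds), under other tools, scalings, filters or the replicate block (circles), and with 1 tumor left out in turn (triangles). *Gfra1* stayed between -4.53 and -3.05, *Ret* moved between 0.57 and 2.23, and *Nrtn* and *Gfra2* had values on both sides of 0.

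Levels of different genes were compared per length, in FPKM. *Nrtn* was highest, with 31.0 ± 19.4 (SD, n = 6) and a range from 12.2 to 65.3 FPKM. *Gfra1* followed with a mean of 8.97 and a range from 0.67 to 22.9 FPKM, *Gfra4* with 3.95 and a range from 0.08 to 15.8, *Ret* with 1.49 and a range from 0.49 to 5.09, and *Gfra2* with 1.22 and a range from 0.82 to 1.77. *Gfra3*, *Gdnf* and *Artn* had means of 0.13, 0.115 and 0.0417 FPKM. The ranges of *Gfra2* and *Gfra3* did not overlap, and those of every other pair of neighbors in this order did. *Nrtn* exceeded *Gfra1* in 5 of 6 tumors, control replicate 1 being the exception, and *Gfra1* exceeded *Gfra4* in all 6. This order is that of the mean over both groups. In the test tumors alone, *Gfra1* with a mean of 1.08 ± 0.58 FPKM (SD, n = 3) came after *Ret* with 2.33 ± 2.41 and *Gfra2* with 1.27 ± 0.23, and in the control tumors alone its mean was 16.9 ± 6.86 FPKM (SD, n = 3). Among all 18460 genes, the pooled mean of *Nrtn* stood at percentile 85.1, that of *Gfra1* at 60.5 and that of *Ret* at 33.9.

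**Figure D3:**
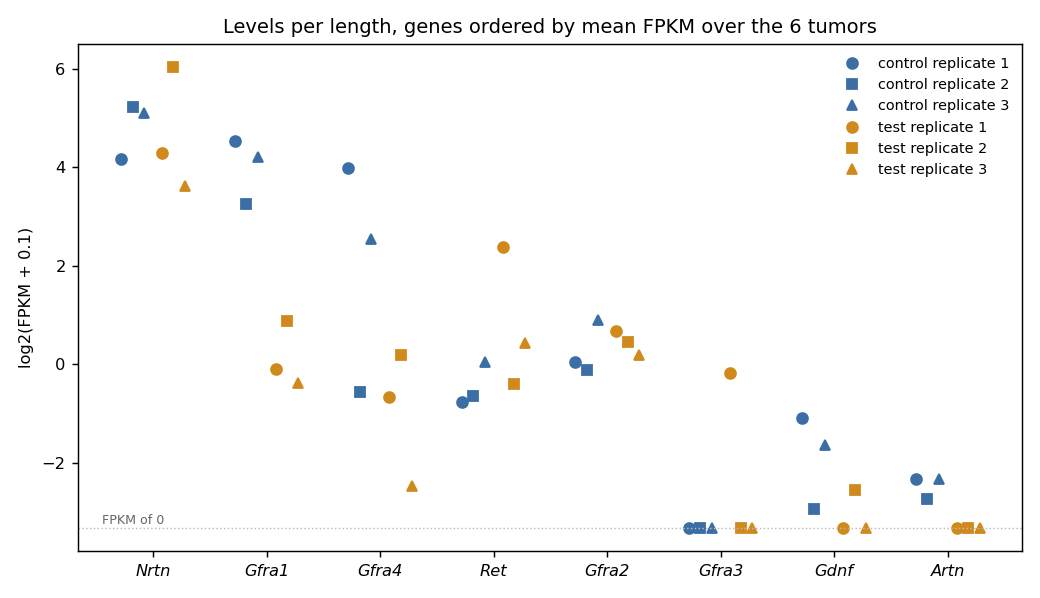
Log2(FPKM + 0.1) of the 8 genes (vertical axis) in each tumor, ordered by mean FPKM, with control tumors in blue, test tumors in orange and the dotted line at an FPKM of 0. *Nrtn* lay from 12.2 to 65.3 FPKM, and *Gfra1* had its 3 control values above its 3 test values.

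Within a tumor, the balance of co-receptor and kinase differed between the groups. The ratio of *Gfra1* to *Ret* FPKM was 46.8, 17.4 and 19.6 in the control and 0.163, 2.64 and 0.54 in the test tumors. All 3 control ratios were above all 3 test ratios, and since both genes come from the chosen contrast this is a description. The 4 co-receptors together had 39.6, 10.8 and 25.7 FPKM in the control and 3.64, 4.04 and 1.79 FPKM in the test tumors. *Gfra1* held 57.8%, 87.0% and 70.9% of that sum in the control and 22.8%, 43.1% and 37.4% in the test tumors. With *Gfra1* low, *Gfra2* made the largest single part of the co-receptor sum in test replicates 1 and 3.

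**Figure D4:**
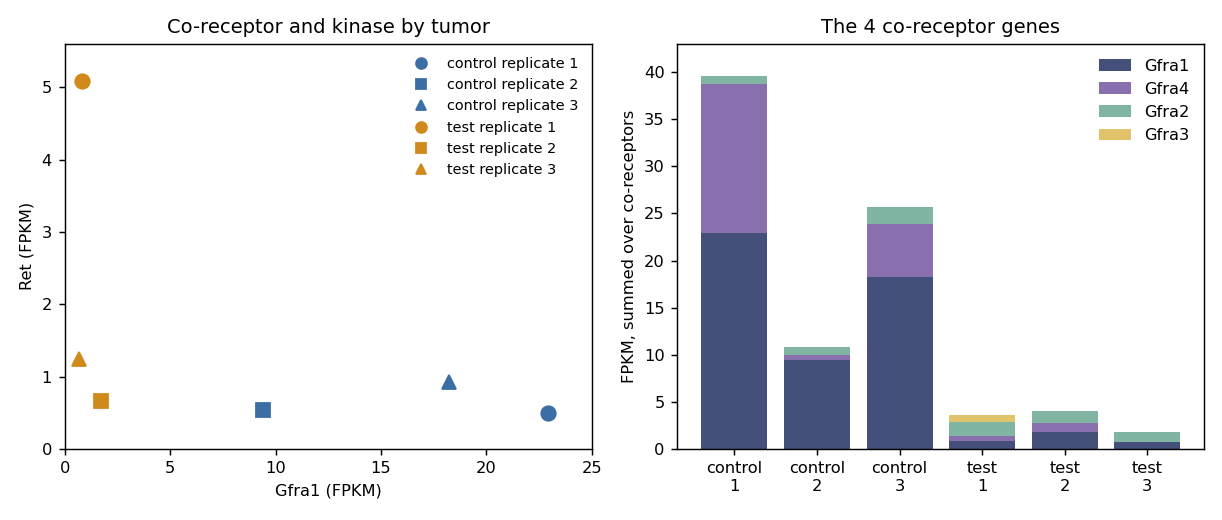
Left, *Ret* FPKM (vertical) against *Gfra1* FPKM (horizontal), 1 point per tumor. Right, FPKM of the 4 co-receptors stacked for each tumor, with sums of 39.6, 10.8 and 25.7 in the control and 3.64, 4.04 and 1.79 in the test tumors, the *Gfra1* part being the lowest segment.

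The tested genes whose pattern over the 6 tumors was nearest to that of *Gfra1* were sought by the root mean square difference of centered log2(CPM + 0.5) values. They were *Col25a1*, a membrane collagen, at 0.33, *Slc6a2*, the norepinephrine transporter, at 0.594, *A2m*, a protease inhibitor, at 0.595, *Dclk1*, a microtubule-associated kinase, at 0.604 and *Scrg1* at 0.64, against an SD of 2.17 for *Gfra1* itself. For *Ret*, with an SD of 1.16, they were *Pamr1* at 0.30, *Slc25a29*, a mitochondrial amino acid carrier, at 0.37, the chloride channel *Clcn2* at 0.38, *Tmem229b* at 0.38 and the protease *Capn5* at 0.39. The 2 sets of 5 genes shared none. Nothing is read from this, since *Gfra1* was lower and *Ret* higher in the test tumors.

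No gene passed a false discovery rate of 0.05 between test and control tumors, 0 of 13706 (0%), by edgeR's quasi-likelihood test. At an unadjusted p under 0.05, 432 genes (3.15%) were higher and 721 (5.26%) lower in the test tumors. DESeq2 called 313 of 13674 genes (2.29%) at a false discovery rate of 0.05. Without control replicate 2, edgeR called 182 of 14166 genes (1.28%), and at an unadjusted p under 0.05 it placed 737 (5.2%) higher and 1283 (9.06%) lower. Groups of 5.86% of the tested genes did not overlap with the test tumors lower, and of 6.12% with the test tumors higher. The counts over the gene lists below are read against these shares. The lists hold genes that work around the GDNF family, and none of their genes passed the false discovery rate by edgeR with all 6 tumors.

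Of the 5 other cell surface partners of the family, 4 were lower in the test tumors with an unadjusted p under 0.05, *Lrig1* was near 0, none passed the false discovery rate by edgeR, and only *Sdc3* had groups without overlap. The median log2 fold change was -2.37 against 0.02 over all tested genes. *Sdc3*, a heparan sulfate proteoglycan that binds GDNF, had 921.3, 189.1 and 602.1 CPM in the control and 62.3, 71.8 and 173.2 CPM in the test tumors. Its log2 fold change was -2.48 (SE 0.65, adjusted p = 0.407 by edgeR), and its groups did not overlap. *Gas1*, a distant relative of the GFRA co-receptors and a hedgehog co-receptor, had 275.4, 30.1 and 294.7 CPM in the control and 55.7, 36.01 and 22.9 CPM in the test tumors (log2 fold change -2.39, SE 0.78, edgeR adjusted p = 0.475). *Ncam1*, an adhesion molecule that can serve as a receptor for GDNF with GFRA1, had 148.8, 21.1 and 155.9 CPM in the control and 6.57, 45.2 and 11.3 CPM in the test tumors (log2 fold change -2.37, SE 0.91, edgeR adjusted p = 0.543). In both *Gas1* and *Ncam1*, control replicate 2 was low and lay inside the test range. *Sorl1*, a sorting receptor for GDNF and GFRA1, had a log2 fold change of -1.14 (SE 0.46, edgeR adjusted p = 0.553), and *Lrig1*, an inhibitor of receptor kinases, one of -0.05 (SE 0.47). DESeq2 called *Gas1* and *Sdc3* at a false discovery rate of 0.05, and edgeR called *Gas1* without control replicate 2.

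The adaptors, kinases and ligases that bind active RET were divided, with 10 of 21 tested genes higher, 11 lower and a median log2 fold change of -0.06. *Fyn*, a Src family kinase, and *Dok1*, a docking protein, were the 2 with an unadjusted p under 0.05, both lower. *Fyn* had 46.1, 28.3 and 78.3 CPM in the control and 12.2, 19.3 and 23.8 CPM in the test tumors, without overlap (log2 fold change -1.46, SE 0.43, edgeR adjusted p = 0.454). *Dok1* had a log2 fold change of -1.28 (SE 0.51, edgeR adjusted p = 0.551). In the other direction, the groups of the ligase *Cblc* (log2 fold change 1.17, SE 0.55) and of the docking protein *Dok4* (0.56) did not overlap, with the test tumors higher. Groups without overlap made 9.52% of the list with the test tumors higher, against 6.12% of all tested genes. With the test tumors lower they made 4.76%, against 5.86%. The share of this list with an unadjusted p under 0.05 and lower, 9.52%, was 2 genes, against 5.26% of all tested genes.

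Of the 23 transcripts known to follow RET or ERK signaling, 20 were lower in the test tumors and 4 had an unadjusted p under 0.05, all 4 lower, with a median log2 fold change of -0.49. *Etv5*, an ETS factor downstream of RET in the ureteric bud and of GDNF in spermatogonial stem cells, had 1209, 168.7 and 735.0 CPM in the control and 167.2, 132.0 and 211.1 CPM in the test tumors (log2 fold change -2.05, SE 0.64, edgeR adjusted p = 0.46). Control replicate 2 again lay among the test tumors. *Egr1*, an immediate early gene, had 211.2, 164.4 and 156.7 CPM in the control and 77.3, 65.9 and 141.8 CPM in the test tumors, without overlap (log2 fold change -0.90, SE 0.34, edgeR adjusted p = 0.533). *Spry1*, a feedback inhibitor of receptor kinases, had a log2 fold change of -1.43 (SE 0.55, edgeR adjusted p = 0.545). For *Etv4*, the close relative of *Etv5*, the value was -1.18 (SE 0.53, edgeR adjusted p = 0.618), for the phosphatase *Dusp6* -1.03 (SE 0.49, edgeR adjusted p = 0.639) and for *Spry4* -0.49 (SE 0.77, edgeR adjusted p = 0.878). Many other receptors feed the same targets. DESeq2 called *Etv5*, and without control replicate 2 *Etv5* and *Spry1* were among those edgeR called, at a false discovery rate of 0.05.

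Among transcription factors known to act on *Ret*, *Gfra1* or *Gdnf*, together with targets of the estrogen receptor, 5 of 16 tested genes were higher and 11 lower, 2 of them with an unadjusted p under 0.05, both lower, and the median log2 fold change was -0.41. *Rarg*, a retinoic acid receptor, had 106.0, 85.4 and 82.5 CPM in the control and 57.6, 61.4 and 58.0 CPM in the test tumors, without overlap (log2 fold change -0.63, SE 0.22, edgeR adjusted p = 0.505). *Esr1*, the estrogen receptor, had a log2 fold change of -0.42 (SE 0.86, edgeR adjusted p = 0.908), and *Gata3*, a luminal factor, one of 0.12 (SE 0.24, edgeR adjusted p = 0.906).

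**Figure D5:**
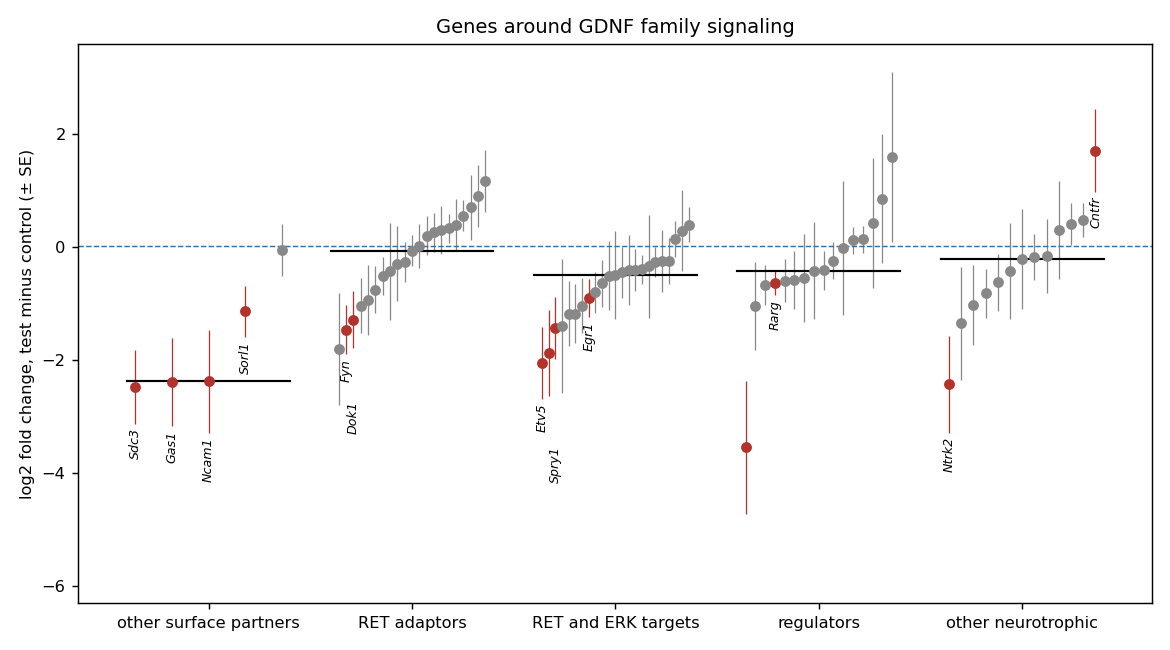
Log2 fold change, test minus control, ± SE (vertical axis) of the 78 tested genes of 5 lists around the GDNF family, 1 point per gene. Red points, most of them labeled, had an unadjusted p under 0.05, black lines give the list medians, which were -2.37, -0.06, -0.49, -0.41 and -0.21 from left to right, and the dashed line is the median of all tested genes, 0.02.

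Over the 5 lists, 56 of 78 tested genes were lower and 22 higher in the test tumors, with 13 lower and 1 higher at an unadjusted p under 0.05 and none at a false discovery rate of 0.05 by edgeR. Over all tested genes, 48.5% were lower. At an unadjusted p under 0.05, 5.26% of all tested genes were lower and 3.15% higher. The median log2 fold change of the 78 genes was -0.41, and -0.63 without control replicate 2. Over all 93 genes of the lists, of which 88 were listed in at least 1 tumor, that fit placed 23 lower and 4 higher at an unadjusted p under 0.05. Its shares over all the genes it tested were 9.06% lower and 5.2% higher. The 93 include genes that it did not test, so the count and these shares have unlike bases.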

How the data were processed

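RNA sequencing of 6 breast tumors (3 test, 3 control by the group label) was analyzed. Per the labels, Illumina libraries were made from total RNA, and the submitters' processing notes name Bowtie, BWA, RSEM and mm10. The annotation release is not given in the sources used here. The deposited values of a tumor are 1 expected count per gene (an RSEM-style estimated count, not normalized), the FPKM that the authors derived by scaling for length and depth, and the gene length. Of the nonzero expected counts, 79% to 80.1% were whole numbers per tumor. Genes not listed for a tumor were set to 0. Identifiers of 18400 genes matched a GRCm38 annotation, 13 matched through a transcript and 47 did not match.

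Expected counts were rounded and compared in R 4.3.3 with edgeR 4.0.16 (filterByExpr, TMM, quasi-likelihood test, no covariates, Benjamini-Hochberg adjustment). The SE is the log2 fold change divided by the square root of F. The study's methods list Poisson, NOISeq and EBSeq procedures without tying 1 of them to this comparison. Alternatives were DESeq2 1.42.0, RLE scaling, no filter, a minimum of 10 counts per tumor, limma-trend (limma 3.58.1) with pseudocounts of 1 and 0.1 on log2 FPKM where the mean FPKM reached 1, the replicate block and each tumor left out. The method was tested on simulated data with 200 changed genes.

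The 8 genes, the gene lists and the markers were chosen with earlier results of these data known. Named genes are the 8 members, their 3 relatives, the gene with the next lowest p, up to 4 genes of lowest p under 0.05 per list, 6 genes named whatever their p (*Etv4*, *Etv5*, *Spry4*, *Dusp6*, *Esr1*, *Gata3*), the 5 nearest patterns to *Gfra1* and to *Ret*, and *Tslp*. The other markers named (*Sox10*, *Foxd3*), *Krt19*, *Lrig1*, *Cblc*, *Dok4*, *Gm16277* and *Mir6973b* were named after their values or positions were seen. Some genes that this rule takes are not reported here.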

Additional observations from a re-analysis of the deposited data

How the results depend on the processing

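*Gfra1* and *Gfra4* were lower and *Ret* higher in the test tumors under every alternative run that could give a value (a minimum of 10 counts in every tumor left out *Gfra4*), while *Gfra2* and *Nrtn* had no stable sign. With limma-trend on log2(FPKM + 1), with or without the filter, the log2 fold change of *Gfra1* was -3.05, that of *Gfra4* -1.91 and that of *Ret* 0.785. On log2(FPKM + 0.1) the values were -3.86, -2.98 and 1.255 in the same order. A pseudocount weighs more on low genes, and its part in these values was not tested. With 1 tumor left out, *Gfra2* ran from -0.089 to 0.492, *Nrtn* from -0.919 to 0.587, *Gfra4* from -4.66 to -2.45, *Gfra1* from -4.53 to -3.61 and *Ret* from 0.57, without test replicate 1, to 2.23. *Nrtn* reversed to -0.17 with log2(FPKM + 1), with or without the filter, to -0.18 with log2(FPKM + 0.1), to -0.16 with the replicate block, to -0.06 without control replicate 1 and to -0.92 without test replicate 2. *Gfra2* reversed to -0.089 without control replicate 2. The cause of these reversals was not tested.

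Over all genes, calls at a false discovery rate of 0.05 went from 0 to 313 with DESeq2, to 1 with limma-trend on log2(FPKM + 1), and from 0 to 182 with 1 tumor left out. Genes at an unadjusted p under 0.05 ranged from 654, without control replicate 1, to 2020, without control replicate 2, against 1153 with all tumors, and were 701 without control replicate 3. In the 5 lists, DESeq2 called 4 genes, leaving out 1 tumor called 0 to 4, and the 14 at an unadjusted p under 0.05 became 8 with limma-trend on log2(FPKM + 1) without a filter and 6 to 27 with 1 tumor left out. By the mean of log2(FPKM + 0.1), 4 of the 8 genes kept their place in the order of levels, and with 1 tumor left out 3 to 8 did.

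The groups share replicate numbers 1 to 3. Same-numbered tumors had correlations of -0.02, 0.12 and -0.14 in their deviations from the group means, and control replicate 1 with test replicate 3 had 0.218. These values cannot exclude a pairing by number, and none is stated in the labels, so the main fit used none. With the replicate block, 0 genes were called at a false discovery rate of 0.05 and 1056 had an unadjusted p under 0.05, and *Gfra1* was at -3.98 and *Ret* at 1.31. Depth limits *Gfra3*, *Gdnf* and *Artn*, whose counts were at most 3 in most tumors.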

Other observations

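Neurotrophic ligands and receptors outside the GDNF family were also counted. Of 13 tested genes, 4 were higher and 9 lower in the test tumors, with a median log2 fold change of -0.21, and none passed a false discovery rate of 0.05 by edgeR. *Ntrk2*, the receptor of brain-derived neurotrophic factor, had 68.4, 15.9 and 148.6 CPM in the control and 19.6, 19.6 and 4.03 CPM in the test tumors (log2 fold change -2.43, SE 0.86, edgeR adjusted p = 0.495), with control replicate 2 inside the test range. *Cntfr*, the receptor of ciliary neurotrophic factor, had 1.85, 2.38 and 5.75 CPM in the control and 18.6, 2.93 and 11.3 CPM in the test tumors (log2 fold change 1.71, SE 0.74, edgeR adjusted p = 0.594), with test replicate 2 inside the control range. Like *Ret*, *Cntfr* was highest in test replicate 1.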
